A study of Danio rerio with 10 samples.

Results

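The 10 genes of programmed cell death described here were measured in isolated red blood cell precursors of the zebrafish: the killer genes bbc3, pmaip1 and baxa, the survival genes mcl1a, mcl1b and bcl2l1, the apoptosome gene apaf1, the mitochondrial factor diablob and the initiator caspases casp8 and casp9. They were taken by symbol from the table of FPKM values (fragments per kilobase of transcript, scaled to the library total), where the 10 symbols cover 11 of 32233 rows, since baxa names 2 rows. The cells were gata1-positive erythroid cells of embryos at 24 hours post fertilization, 5 libraries from sf3b1 mutants (replicates 1, 3, 4, 5 and 6) and 5 from siblings titled wild type (replicates 2 to 6). The gene gata1 encodes a transcription factor of the erythroid lineage, and sf3b1 a subunit of the spliceosome. The allele, the parents' genotype, how gata1-positive cells were recognised, the number of embryos per library and whether heterozygotes are among the siblings are not stated by the labels. Since no label ties a library to its own clutch or pool of embryos, each p-value reflects the spread among these libraries alone, and that spread may be technical.

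Most vertebrate cells die through proteins of the BCL-2 family. Its survival members include Mcl-1 and Bcl-xL (bcl2l1). BH3-only proteins such as Puma (bbc3) and Noxa (pmaip1) each bind and block some or all survival members, which frees Bax to open the outer mitochondrial membrane. Cytochrome c then joins Apaf1 and caspase-9 in the apoptosome, while Smac (diablo) lifts the block that inhibitor of apoptosis proteins place on caspases. Caspase-8 starts the other route, from death receptors at the cell surface. In mammals the red cell lineage depends on Bcl-xL and Mcl-1 for survival, and death receptors restrain the number of erythroblasts.

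The libraries were checked against their labels. Transcripts of sf3b1 lay at 16.0 to 21.3 FPKM in mutants and at 36.3 to 43.9 FPKM in siblings, a log2 fold change of -1.05 (limma adjusted p = 3.26e-04). Sibling 2 carries a genotype tag that reads mutant. It was grouped by its title, which reads wild type, and by the 5 libraries that the design text gives each group. Its sf3b1 level was 41.0 FPKM, inside the sibling range. The 11 erythroid markers summed to 2466 to 8675 FPKM in mutants and 4957 to 22210 FPKM in siblings, so erythroid transcripts were present in every library. Most of each sum came from the globin genes hbae3 (means of 2804 FPKM in mutants and 6306 FPKM in siblings) and hbbe3 (2265 and 5488 FPKM). The sums thus do not measure how pure the cells were. Each of the 11 markers had a lower mean in mutants than in siblings. The part of this difference in the levels of the 10 genes was not tested. Mutant 1 and sibling 2 had the lowest erythroid sums of their groups (2466 and 4957 FPKM) and the highest sums of 12 epidermal markers (1054 and 732.3 FPKM, against 302.8 to 551.4 FPKM in the other 8 libraries). Sums of 10 neutrophil and macrophage markers did not overlap, at 153.6 to 326.4 FPKM in mutants and 392.5 to 733.5 FPKM in siblings. Sums of endothelial, neural, muscle and thrombocyte markers overlapped between the groups (76.9 to 111.1, 24.8 to 86.6, 41.4 to 320.7 and 3.41 to 12.9 FPKM over all libraries), and 0 marker rows were at 0 in all libraries. In bulk samples fewer cells of a type and less RNA per cell cannot be told apart. The values hold no counts, so depth is unknown; the commonest ratio between low values would put it at 0.578 (mutant 3) to 1.26 (sibling 6) of that of mutant 1, if no later scaling was applied.

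Of the 11 rows, 9 had a mean of at least 1 FPKM and were tested. The test was limma, which fits each row on its own and steadies its variance by that of all rows. At an adjusted p under 0.05 in limma, bbc3, casp8, diablob and baxa rose in mutants, and pmaip1 fell. Over all 13003 rows tested, 5.59% rose, 8.74% fell and 14.3% changed in either direction. At an unadjusted p under 0.05 in limma, 11.4% were higher, 17.6% lower and 29% either. The 4 rises among 9 tested members stand beside a background of 5.59%, but the members were chosen with earlier results of these data known. That contrast is thus a description only. For the 5 members called, mutant and sibling ranges were apart, as they were for 12.2% of all rows tested. The median log2 fold change was 0.20 over the tested members and -0.06 over all rows tested. None of the 10 genes lies on chromosome 9, which holds sf3b1.

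**Figure D1:**
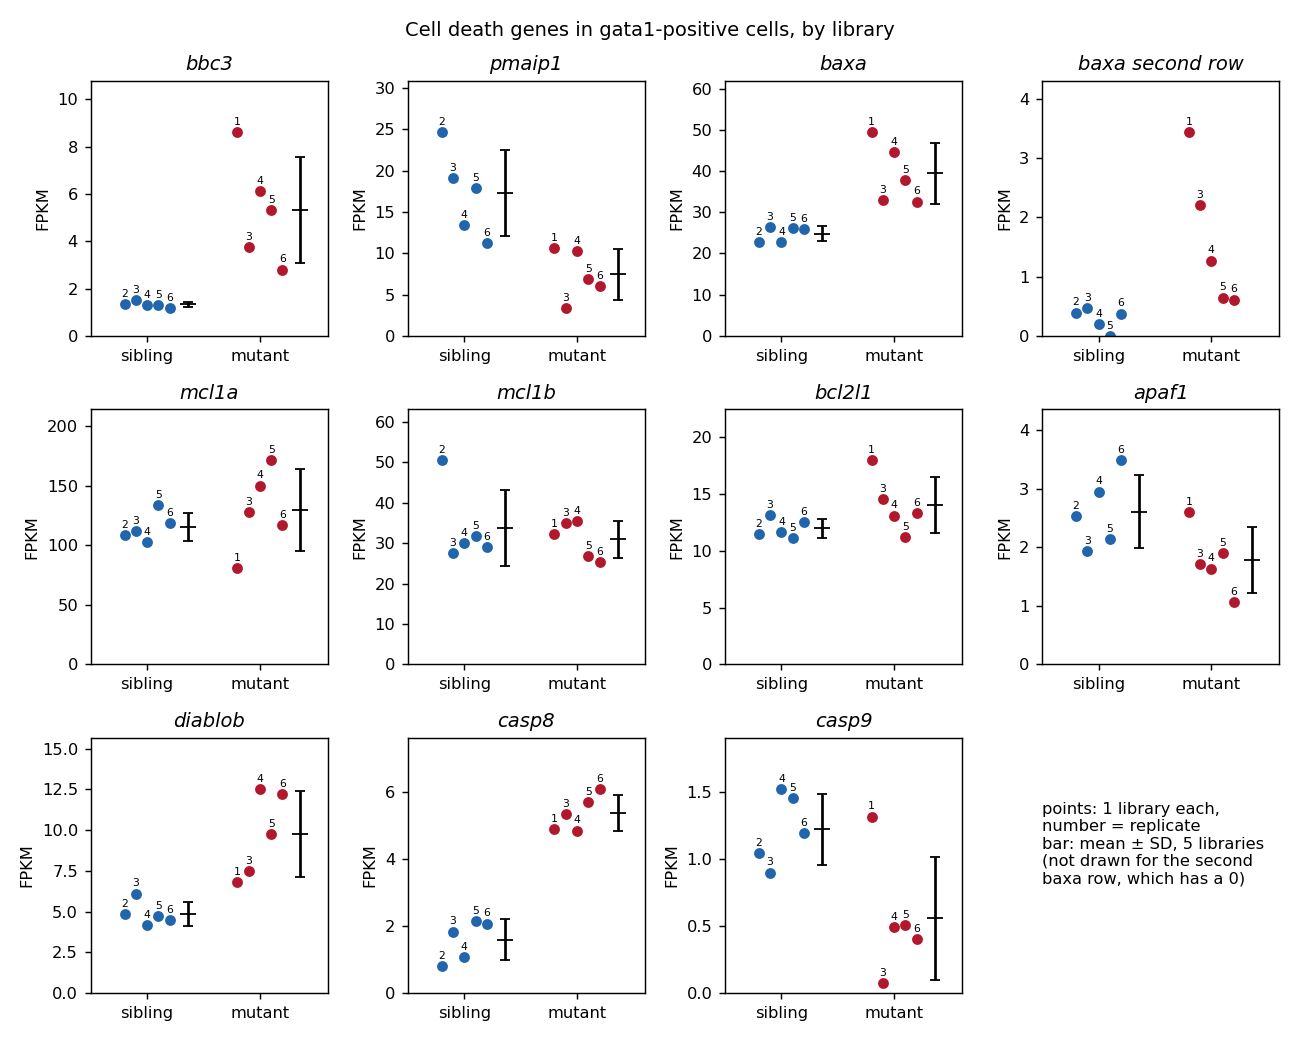
FPKM of the 11 rows (vertical axes, linear from 0) in 5 sibling libraries (blue) and 5 mutant libraries (red), each point labelled with its replicate number, with the mean ± SD. The mutant points of bbc3, baxa, diablob and casp8 all lie above the sibling points, those of pmaip1 all lie below them, and the survival genes overlap.

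The BH3-only genes moved in opposite directions. bbc3 (ENSDARG00000069282, GRCz10 chromosome 15, 23809952 to 23826315), which encodes Puma, lay at 8.62, 3.76, 6.11, 5.33 and 2.80 FPKM in mutants 1, 3, 4, 5 and 6. Siblings 2 to 6 lay at 1.35, 1.51, 1.31, 1.31 and 1.18 FPKM. Every mutant library was thus above every sibling library, and mutant 1 was the highest. The mutant mean of 5.33 ± 2.25 FPKM was 4.0 times the sibling mean of 1.33 ± 0.12 FPKM (SD, n = 5 each). On the scale of log2(FPKM + 1) the difference was 1.37 (SE 0.23, limma adjusted p = 0.00218). Without mutant 1 it was 1.20 (limma adjusted p = 0.00278). The siblings were tight, with a coefficient of variation of 8.82%, while the mutants varied by 42.3%. In siblings bbc3 was a low transcript, with 9.03% of tested rows at or below its level.

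pmaip1 (ENSDARG00000089307, chromosome 10, 8697717 to 8698776), which encodes Noxa, lay at 10.7, 3.38, 10.2, 6.89 and 6.01 FPKM in mutants 1, 3, 4, 5 and 6. The siblings lay at 24.7, 19.1, 13.4, 17.9 and 11.3 FPKM, replicates 2 to 6 in order. The groups came close, with the highest mutant just under the lowest sibling, but did not overlap. The mean fell from 17.3 ± 5.22 FPKM (SD, n = 5) in siblings to 7.43 ± 3.04 FPKM (SD, n = 5) in mutants, a ratio of 2.32. The log2 fold change was -1.15 (SE 0.28, limma adjusted p = 0.0179), and leaving out any 1 library gave -1.29 to -0.94 with an adjusted p of 0.0128 to 0.0430. The neutrophil and macrophage marker sum was also lower in every mutant library. Its part in the fall of pmaip1 was not tested. Within groups pmaip1 and the mean of those markers had a Pearson correlation of -0.20 and a Spearman correlation of -0.03 (exact permutation p = 0.599 and 0.955, 10 libraries, adjusted p = 0.823 and 0.955 over 27 such relations). Without the 2 libraries farthest from the median the Pearson value was -0.32.

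The balance of these BH3-only transcripts differed in every library. In siblings pmaip1 was present at 9.54 to 18.2 times the FPKM of bbc3, and in mutants at 0.90 to 2.14 times. bbc3 made up 42.0 ± 7.89% (SD, n = 5) of their sum in mutants and 7.54 ± 1.70% (SD, n = 5) in siblings. The sum itself overlapped, at 7.15 to 19.3 FPKM in mutants and 12.4 to 26.0 FPKM in siblings. These shares are computed from the values above and were not tested on their own.

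**Figure D2:**
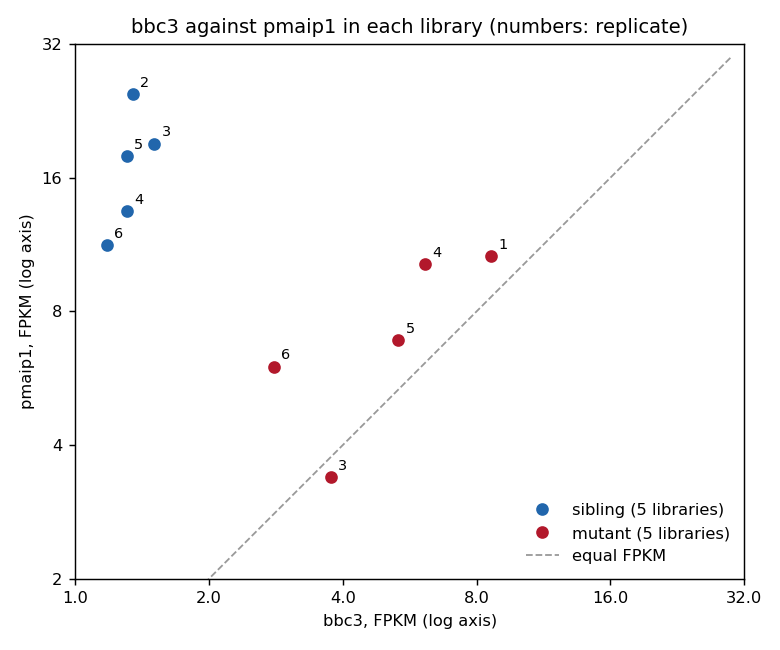
pmaip1 (vertical axis) against bbc3 (horizontal axis), both in FPKM on log axes, for 5 sibling (blue) and 5 mutant (red) libraries labelled by replicate number; the dashed line marks equal FPKM. Siblings sit at the upper left, with bbc3 at 1.18 to 1.51 FPKM, and mutants near the line, with mutant 3 just below it.

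Of the other BH3-only genes listed, 10 were tested; 0 passed the threshold in limma, and 1 had an unadjusted p under 0.05, beside 29% of all rows. The most abundant of these were bnip4 (12.0 and 11.6 FPKM in mutants and siblings) and badb (10.3 and 9.38 FPKM). bcl2l11, which encodes Bim, was at 2.35 and 2.27 FPKM. The gene with the unadjusted p under 0.05 was bada, at 2.11 ± 0.84 and 1.12 ± 0.48 FPKM (SD, n = 5 each; log2 fold change 0.54, limma adjusted p = 0.140). The median log2 fold change of the 10 was -0.05.

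Transcripts of the pore-forming gene baxa rose. baxa (ENSDARG00000020623, chromosome 3, 37634631 to 37644015), which encodes the Bax protein of the mitochondrial outer membrane pore, lay at 49.5, 32.9, 44.6, 37.8 and 32.6 FPKM in mutants 1, 3, 4, 5 and 6. The sibling values, in replicate order, were 22.8, 26.4, 22.8, 26.2 and 26.0 FPKM. The lowest mutant was above the highest sibling. The means of 39.5 ± 7.40 and 24.8 ± 1.85 FPKM (SD, n = 5 each) gave a ratio of 1.59, and the log2 fold change was 0.63 (SE 0.15, limma adjusted p = 0.0144). With the replicate number as a block, over replicates 3 to 6, the adjusted p was 0.0625.

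The second row named baxa (ENSDARG00000089129, chromosome 3, 37624615 to 37631942) ends 2688 bases before the row above begins. It held 3.44, 2.2, 1.27, 0.65 and 0.61 FPKM in the mutant libraries and 0.39, 0.48, 0.21, 0 and 0.38 FPKM in siblings, where sibling 5 is listed at 0. The mutants again lay above the siblings, but the mean over all libraries was 0.96 FPKM, so the row was not tested with the others. With no filter on low values its limma adjusted p was 0.0844. It carried 0 to 6.50% of the summed FPKM of both rows, and how reads were divided between them is not stated. baxb, a paralog, was at 1.12 and 1.72 FPKM (limma adjusted p = 0.348), and boka and bokb, other pore-type genes, were below the filter.

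Of the 3 survival genes 0 passed the test in limma, beside 14.3% of all rows tested. At an unadjusted p under 0.05 the count was also 0, beside 29% of all rows. The groups overlapped for all 3, while ranges were apart for 12.2% of all rows tested. mcl1a (ENSDARG00000009779, chromosome 19, 348522 to 353024), a zebrafish paralog of Mcl-1, was the most abundant of the 10 genes. It lay at 80.7, 128.0, 150.2, 171.2 and 117.0 FPKM in the mutant libraries and at 108.7, 111.9, 103.0, 133.6 and 118.9 FPKM in siblings. Mutant 1 was the lowest library and mutant 5 the highest, so the mutants lay on both sides of the siblings. The log2 fold change was 0.13 with a 95% interval of -0.29 to 0.55 (limma adjusted p = 0.71).

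mcl1b (ENSDARG00000008363, chromosome 16, 29651326 to 29656830), the other Mcl-1 paralog, lay at 32.3, 35.0, 35.4, 26.8 and 25.4 FPKM in the mutant libraries and at 50.5, 27.6, 30.1, 31.7 and 29.1 FPKM in siblings. Sibling 2 stood alone above all others. The log2 fold change was -0.10 (95% interval -0.49 to 0.30, limma adjusted p = 0.766), and it was 0.05 without sibling 2. In the libraries mcl1a was at 2.15 (sibling 2) to 6.40 (mutant 5) times the FPKM of mcl1b.

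bcl2l1 (ENSDARG00000008434, chromosome 23, 19027527 to 19056156), which encodes the Bcl-xL protein, lay at 18.0, 14.6, 13.1, 11.2 and 13.3 FPKM in the mutant libraries and at 11.5, 13.1, 11.7, 11.1 and 12.5 FPKM in siblings. Apart from mutants 1 and 3 all libraries were between 11.1 and 13.3 FPKM. The log2 fold change was 0.20 (95% interval -0.10 to 0.50, limma adjusted p = 0.383). The intervals of mcl1a, mcl1b and bcl2l1 reached no further than 0.55 upward and -0.49 downward on the log2 scale.

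The 3 survival genes together came to 174.4 ± 31.8 FPKM in mutants and 161.0 ± 12.9 FPKM in siblings (SD, n = 5 each). mcl1a made up 61.6 to 81.8% of that sum in mutants and 63.7 to 75.7% in siblings. baxa stood at 0.18 to 0.38 of the survival sum in mutants and 0.13 to 0.17 in siblings. This ratio, like the sums, is a description of genes already tested one by one. The other 2 survival genes tested did not pass the threshold, nor an unadjusted p of 0.05, as 14.3% and 29% of all rows did. They were bcl2l10, at 31.5 and 30.9 FPKM, and bcl2a, at 3.59 and 4.61 FPKM.

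**Figure D3:**
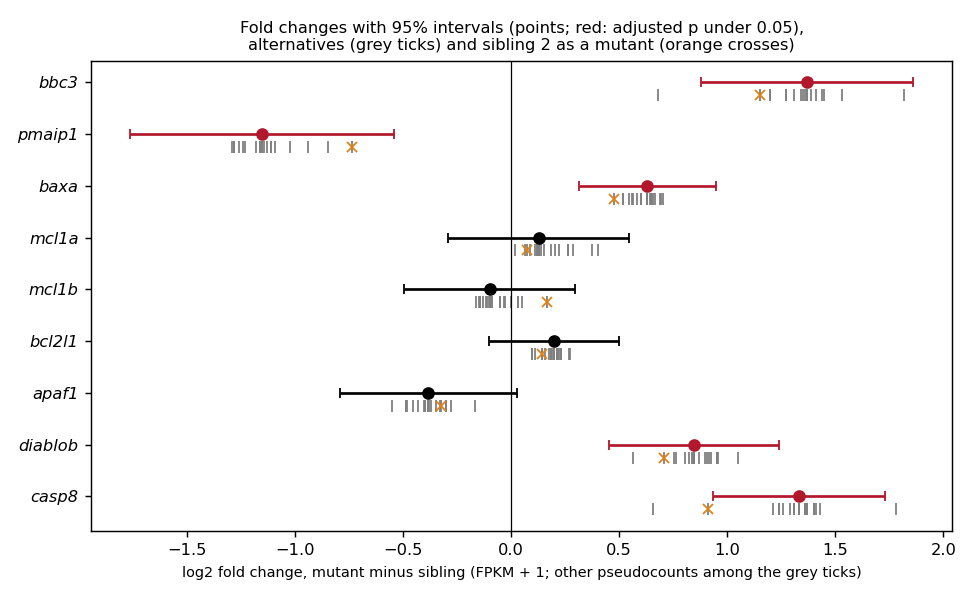
Log2 fold change of the 9 tested rows, mutant minus sibling (horizontal axis), with 95% intervals from limma; red marks an adjusted p under 0.05, grey ticks the values under other settings and orange crosses the value with sibling 2 counted as a mutant. The 5 red intervals lie clear of 0, those of mcl1a, mcl1b, bcl2l1 and apaf1 include it.

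The apoptosome and mitochondrial factors went different ways. diablob (ENSDARG00000014956, chromosome 21, 21486446 to 21574221), which encodes a Smac protein, lay at 6.80, 7.48, 12.5, 9.74 and 12.2 FPKM in the mutant libraries and at 4.84, 6.09, 4.17, 4.73 and 4.48 FPKM in siblings 2 to 6. All mutants were above all siblings, with mutants 1 and 3 the nearest to them. The ratio of the means was 2.01, from 9.75 ± 2.62 and 4.86 ± 0.74 FPKM (SD, n = 5 each), and on the log2 scale diablob rose by 0.85 (SE 0.18, limma adjusted p = 0.00995). Its span overlaps 10 other rows, none of which had a mean above 0.06 FPKM. The paralog diabloa had a log2 fold change of 0.66 (95% interval 0.14 to 1.18, limma adjusted p = 0.0839), at 1.73 ± 0.49 and 0.77 ± 0.54 FPKM.

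apaf1 (ENSDARG00000021239, chromosome 4, 17854738 to 18074738), the scaffold of the apoptosome, lay at 2.61, 1.72, 1.64, 1.90 and 1.06 FPKM in the mutant libraries and at 2.54, 1.94, 2.95, 2.15 and 3.48 FPKM in siblings. Mutant 1 lay among the siblings, and the other 4 mutants lay below all 5. The log2 fold change was -0.38 (95% interval -0.79 to 0.03, limma adjusted p = 0.203). The row spans 220.0 kb and overlaps anks1b, which had a mean of 8.78 FPKM; the use of strand in counting is not stated, so its level is uncertain.

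Among 8 other tested genes of this list 1 rose and 1 fell, beside 5.59% and 8.74% of all rows tested. At an unadjusted p under 0.05 in limma there were 3 in either direction, beside 29% of all rows. aifm1, which encodes the mitochondrial flavoprotein AIF, was at 8.06 ± 1.06 against 16.7 ± 3.03 FPKM (SD, n = 5), a log2 fold change of -0.96 (limma adjusted p = 0.00152). endog, a mitochondrial endonuclease, was at 8.79 ± 2.02 against 5.07 ± 1.07 FPKM (limma adjusted p = 0.0292). That call was lost when any of mutants 3, 4, 5 and 6 or siblings 5 and 6 was left out, at adjusted p of 0.0505 to 0.0683, and also with no filter on low values (0.0540). The abundant genes vdac2, a mitochondrial channel, and cycsb, a cytochrome c gene, were at 165.5 and 196.6 FPKM and at 133.1 and 126.9 FPKM (limma adjusted p = 0.405 and 0.798).

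Of the initiator caspases, casp8 rose and casp9 was too low to be tested with it. casp8 (ENSDARG00000058325, chromosome 6, 12811027 to 12821868), the death receptor caspase, lay at 4.90, 5.33, 4.84, 5.70 and 6.09 FPKM in the mutant libraries and at 0.81, 1.83, 1.06, 2.15 and 2.07 FPKM in siblings. The mutant libraries were close together, with a coefficient of variation of 9.89%, and far above the siblings. The means were 5.37 ± 0.53 and 1.58 ± 0.61 FPKM (SD, n = 5 each), a ratio of 3.39. casp8 had the smallest p of the 10 genes, with a log2 fold change of 1.33 (SE 0.18, limma adjusted p = 6.96e-04). Leaving out any 1 library gave 1.21 to 1.41.

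casp9 (ENSDARG00000004325, chromosome 23, 25047232 to 25058731), the caspase of the apoptosome, was low. It lay at 1.32, 0.07, 0.49, 0.51 and 0.40 FPKM in the mutant libraries and at 1.05, 0.90, 1.53, 1.45 and 1.19 FPKM in siblings. Mutant 1 lay among the siblings, and the other 4 mutants lay under all of them. Its mean over all libraries was 0.89 FPKM, under the filter. By a two-sided exact permutation test of log2(FPKM + 1) p was 0.0317, not adjusted, and with no filter on low values the limma adjusted p was 0.152. In FPKM casp8 exceeded casp9 in all 5 mutant libraries, at 3.72 to 71.7 times its level, where the upper value rests on the 0.07 FPKM of casp9 in mutant 3. In siblings the ratio ran from 0.70 to 2.04.

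For bbc3, pmaip1, baxa, diablob and casp8 the same exact permutation test gave p = 0.0079 each, unadjusted, the smallest p that 5 libraries against 5 can give. Any row whose ranges are apart gets this p, and ranges were apart for 12.2% of all rows tested. It thus adds nothing to the separation of the ranges given above. All 5 limma calls ended when sibling 2 was counted as a mutant by its tag. The adjusted p was then 0.0598 for bbc3, 0.292 for pmaip1, 0.175 for baxa, 0.0979 for diablob and 0.141 for casp8, in the same directions, and 4 of the 9 tested members were higher at an unadjusted p under 0.05, beside 10% of all rows in that setting. In that setting a library with 41.0 FPKM of sf3b1 sat among mutants of 16.0 to 21.3 FPKM. Without both mutant 1 and sibling 2 all 5 kept an adjusted p under 0.05, between 0.00182 for casp8 and 0.0338 for baxa.

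Of 6 other caspases tested 0 rose and 0 fell in limma, beside 5.59% and 8.74% of all rows tested. At an unadjusted p under 0.05 there was 1 of the 6, casp2, beside 29% of all rows. The median log2 fold change of the 6 was -0.11. casp20 (12.9 and 11.1 FPKM) and casp2 (6.07 and 9.42 FPKM, limma adjusted p = 0.0676) were the most abundant of the 6. casp3a, an executioner caspase, was at 5.40 ± 2.10 and 5.18 ± 1.73 FPKM (SD, n = 5 each; log2 fold change 0.03, 95% interval -0.51 to 0.58). casp3b, also an executioner, was below the filter and was not tested. It lay at 0.16 to 0.65 FPKM in mutants and 0.69 to 1.55 FPKM in siblings, with every mutant below every sibling. caspb, another caspase below the filter, lay the other way, at 0.28 to 2.15 FPKM in mutants and 0.07 to 0.18 FPKM in siblings. Ranges were apart for 12.2% of all rows tested, and both genes were low.

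Of 10 other tested genes of the death receptor list 1 fell and 0 rose in limma, and at an unadjusted p under 0.05 3 were lower and 0 higher, beside 17.6% and 11.4% of all rows. The gene that fell was fadd, the adaptor that brings caspase-8 to death receptors, at 3.34 ± 1.43 against 7.22 ± 3.11 FPKM (SD, n = 5; limma adjusted p = 0.0348). It no longer passed without mutant 1, 3, 5 or 6 or without sibling 4 or 6, at adjusted p of 0.0585 to 0.0786, nor without both mutant 1 and sibling 2 (0.0554), under the replicate block (0.0652) or with no filter on low values (0.0733). The receptor gene tnfrsf1a was at 18.5 and 12.8 FPKM (limma adjusted p = 0.191), and tnfrsfa, another receptor of the tumour necrosis factor type, at 9.04 and 6.70 FPKM (0.289). The ligand faslg and the receptor fas were under the filter, with group means of at most 0.54 FPKM.

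Among 5 inhibitors of apoptosis 1 fell and 0 rose in limma, and at an unadjusted p under 0.05 2 were lower and 0 higher, beside the same shares of all rows. birc5a, which encodes Survivin and also acts in mitosis, was at 3.53 ± 0.81 against 5.99 ± 0.57 FPKM (SD, n = 5; log2 fold change -0.64, limma adjusted p = 0.0173). birc2 was at 10.8 and 16.3 FPKM (limma adjusted p = 0.0692), birc6 at 10.03 and 10.6 FPKM, and xiap at 4.49 and 3.87 FPKM. Of 8 tested genes of the executioner substrates 1 fell and 0 rose in limma, beside 8.74% and 5.59% of all rows tested. The counts were the same at an unadjusted p under 0.05, beside 17.6% and 11.4%. The gene that fell was dffa, the inhibitor of the nuclease that cuts DNA in dying cells, at 3.84 ± 0.49 against 6.94 ± 1.20 FPKM (limma adjusted p = 0.00804). lmnb1 and acin1a, the most abundant of that list, were at 104.1 and 112.4 FPKM and at 84.0 and 86.5 FPKM.

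**Figure D4:**
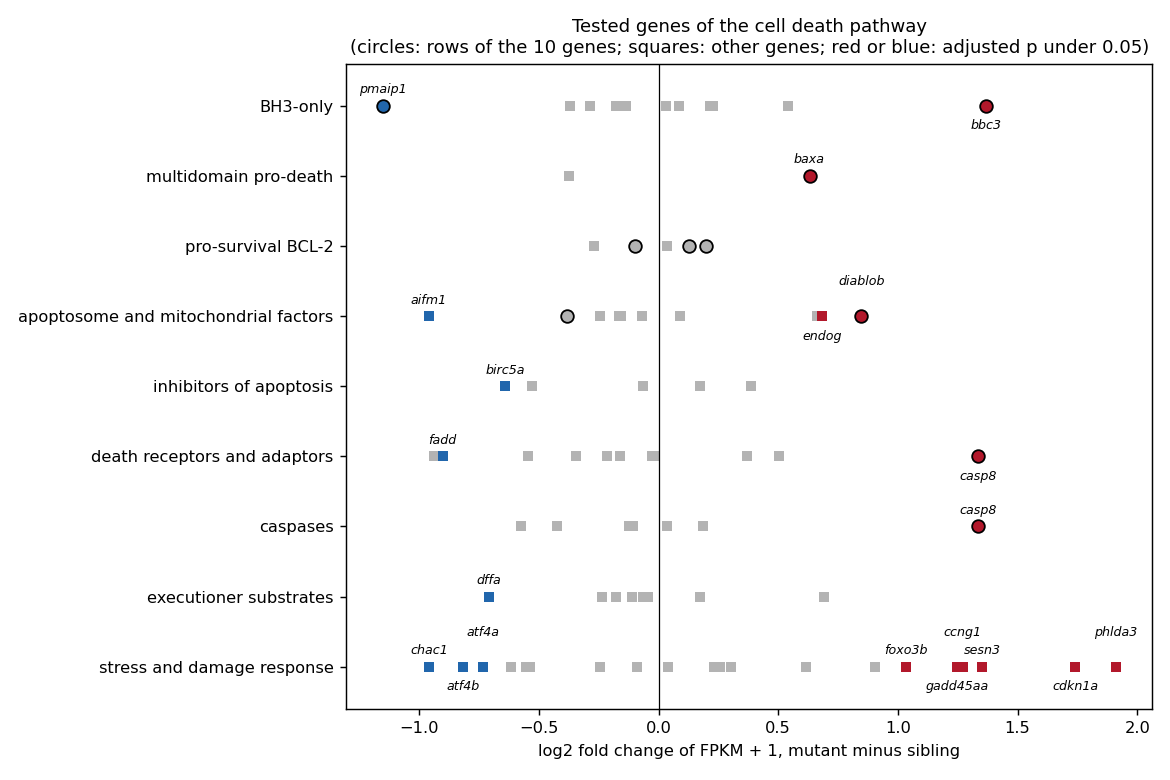
Log2 fold change of every tested gene of 9 cell death lists (horizontal axis, FPKM + 1, mutant minus sibling), 1 line per list; circles are rows of the 10 genes, squares other genes, red and blue an adjusted p under 0.05. The stress and damage list holds 9 coloured squares, 6 of them on the right, while most genes of the other lists are grey.

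The stress and damage list, of genes that respond to DNA damage, low nutrients or misfolded protein, held changes in both directions. Of 20 tested genes 6 rose and 3 fell, with a median log2 fold change of 0.24, against 5.59% and 8.74% of all rows tested. This list too was chosen with earlier results of these data known, so the contrast is a description only. The genes that rose were phlda3, cdkn1a, sesn3, ccng1, gadd45aa and foxo3b. phlda3, an inhibitor of Akt signalling, went from 2.58 ± 0.94 to 12.4 ± 3.01 FPKM (SD, n = 5; log2 fold change 1.91, limma adjusted p = 1.59e-04). cdkn1a, the p21 cell cycle inhibitor, lay at 56.3 to 98.8 FPKM in mutants and 7.56 to 36.8 FPKM in siblings (limma adjusted p = 0.00582).

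sesn3, a sestrin that restrains growth signalling, lay at 9.24 to 10.6 FPKM in mutants and 2.01 to 4.78 FPKM in siblings, a log2 difference of 1.35 (limma adjusted p = 5.25e-04). ccng1 and foxo3b had log2 fold changes of 1.27 and 1.03. The mutant range of gadd45aa, at 1.52 to 6.04 FPKM, overlapped the sibling range of 0.15 to 2.97 FPKM, in which sibling 2 was the highest. Its call (limma adjusted p = 0.0372) ended when any of mutants 1, 3, 4 and 5 or siblings 3, 4, 5 and 6 was left out, at 0.0574 to 0.0881, with no filter (0.0828) and on log2(FPKM + 5) (0.0534). The 3 genes that fell act in the integrated stress response. atf4a and atf4b, transcription factors, were at 95.05 and 159.9 FPKM and at 40.2 and 71.6 FPKM (limma adjusted p = 0.00545 and 0.00994), and chac1, a glutathione-degrading enzyme, was at 22.0 and 44.4 FPKM (0.00244). ddit3, another gene of that response, was at 17.2 and 27.0 FPKM (0.0650).

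Over all 9 lists together, 70 genes other than the members were tested, with a median log2 fold change of -0.08. Of these 7 rose and 7 fell, beside 5.59% and 8.74% of all rows tested. The stress and damage list held 6 of the rises and 3 of the falls. With sibling 2 counted as a mutant 4 of the 70 rose and 1 fell, beside 300 and 461 of all 13003 rows tested in that setting. Among those named above, birc5a, dffa, ccng1, foxo3b, atf4a, atf4b, chac1, endog and fadd then missed the threshold, at limma adjusted p of 0.0549 to 0.157.

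Among 36 pairs of tested members, no correlation of deviations from the group means passed an adjusted p of 0.05 over the 36 (10 libraries, exact permutation within groups). The largest was between bbc3 and baxa, with a Pearson correlation of 0.88 and a Spearman correlation of 0.84 (exact permutation p = 0.0124 and 0.0253, adjusted p = 0.185 and 0.303). It was 0.75 without the 2 libraries farthest from the median of bbc3. Among siblings bbc3 varied little (coefficient of variation 8.82%, against 42.3% in mutants), so the Pearson value describes mostly the mutants. Both bbc3 and baxa were highest in mutant 1 and next highest in mutant 4. bbc3 and pmaip1, which changed in opposite directions between groups, had positive values within groups. Their Spearman correlation was 0.83 (exact permutation p = 0.0084, adjusted p = 0.302). The Pearson value was 0.66 (exact permutation p = 0.083, adjusted p = 0.508), and 0.85 without the 2 libraries farthest from the median of bbc3. For diablob and apaf1 the Pearson correlation was -0.74 (exact permutation p = 0.0151, adjusted p = 0.185). It was -0.715 without the 2 libraries farthest from the median of diablob. For casp8 and mcl1b it was -0.725 (exact permutation p = 0.0187, adjusted p = 0.185), and -0.686 without the 2 farthest from the median of casp8. mcl1a and bcl2l1 had a Pearson correlation of -0.86 (exact permutation p = 0.0206, adjusted p = 0.185; Spearman -0.66, p = 0.0777, adjusted p = 0.560), which was -0.28 without the 2 libraries farthest from the median of mcl1a, so it rests on those.

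Against the marker means of erythroid, epidermal and neutrophil and macrophage genes, no member passed an adjusted p of 0.05 over the 27 relations. The largest values were those with the neutrophil and macrophage markers, the list whose sums did not overlap between the groups. For apaf1 the Pearson correlation with them was 0.805 (exact permutation p = 0.00993, adjusted p = 0.192; Spearman 0.78, p = 0.0196, adjusted p = 0.415), and 0.58 without the 2 farthest libraries. For diablob it was -0.785 (exact permutation p = 0.0142, adjusted p = 0.192; Spearman -0.745, p = 0.0308, adjusted p = 0.415), and -0.63 without the 2 farthest. The sum of these markers, though not each marker on its own, was lower in all mutants than in all siblings. By contrast, diablob was higher in all mutants. With epidermal markers the Pearson value of diablob was -0.71 (exact permutation p = 0.0399, adjusted p = 0.273; Spearman -0.70, p = 0.0700, adjusted p = 0.630), and -0.84 without the 2 farthest. That of casp8 was -0.60 (exact permutation p = 0.0405, adjusted p = 0.273; Spearman -0.43, p = 0.178, adjusted p = 0.763), and -0.17 without the 2 farthest. The part of RNA from either cell type in the levels of apaf1, diablob and casp8 was not tested.

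By the same deviations, the named genes most like each of the 9 tested members over the 10 libraries are given as a description. There are 3 for the BH3-only genes and baxa and 1 for the rest. Rows with clone names or symbols of similar form were left out, so a row more alike may exist among the 13003. The highest of so many values is high by selection. The genes most like bbc3, which varied mostly among the mutants, were gab2, mfap4 and slc25a10 (0.94, 0.94 and 0.93). The gene mfap4 is also one of the neutrophil and macrophage markers. The genes most like baxa were marveld1, anxa4 and clint1a (0.92, 0.91 and 0.91). For pmaip1 they were syap1, cyth3b and map3k14a (0.96, 0.92 and 0.92). casp8 was most like serhl (0.97), diablob like zc3h15 (0.97), mcl1a like dnttip2 (0.98), mcl1b like fkbp8 (0.96), bcl2l1 like ca15a (0.94) and apaf1 like hsd3b7 (0.97).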

How the data were processed

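The libraries came from a stranded kit after ribosomal RNA depletion, per the labels' protocols. The submitters' processing notes name Trim Galore, Picard, STAR 2.4.2a, Cufflinks 2.2.1 and the GRCz10 build; the annotation, and whether strand was used in counting, are not stated there. What the authors deposited is FPKM for each gene row and library, per the file headers, so absolute depth and counting error are unknown. A base was added to each start given in the table. A listed 0 can be a failed estimate, since 24 rows averaging 100 FPKM or more have a 0 in some library.

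Rows averaging at least 1 FPKM (13003) were tested on log2(FPKM + 1) with limma 3.58.1 in R 4.3.3. The prior variance was trended, and Benjamini-Hochberg adjustment ran over all of them at 0.05. In simulated data this recovered 14%, 58%, 88% and 98% of changes of 1.5, 2, 3 and 4 fold, with 50 rows of each size. A count of 0 calls thus does not exclude small changes. Fold changes are on the scale of log2(FPKM + 1), which understates changes of low genes, while ratios and SDs are of FPKM. Single values and correlations of deviations from group means were tested by two-sided exact permutation. Python 3.11.15, pandas 2.3.3, numpy 2.4.6 and matplotlib 3.10.9 served for the rest.

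The members and gene lists were chosen with earlier results of these data known. Named were the 10 members, list genes past the threshold, the 2 highest of each list by mean FPKM and up to 3 genes most like each member. Outside that rule, badb, bcl2l11, bada, boka, bokb, bcl2l10, bcl2a, diabloa, xiap, casp3a, casp3b, caspb, fas, faslg, ddit3 and anks1b were chosen after their values were seen. Of 168 list symbols, markers included, 150 matched the table, 9 matched through a current symbol and 9 were unmatched; casp8 and casp9 are in 2 lists each. Alternatives were other pseudocounts, filters and scalings, no variance trend, array weights, sibling 2 as a mutant, a replicate block and libraries left out; median of ratios scaling without mutant 1 was added after seeing the data.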

Additional observations from a re-analysis of the deposited data

Results flagged for a closer look

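Among 40 sets of 5 values examined (11 rows and 9 sums or ratios in each group), 3 had 1 library far from the other 4; about 1 in 20 such sets stands out by chance. mcl1b was at 50.5 FPKM in sibling 2, against 27.6 to 31.7 FPKM in the other siblings. The ratio of casp8 to casp9 was 71.7 in mutant 3, where casp9 was at 0.07 FPKM. baxa stood at 0.378 of the survival gene sum in mutant 1, against 0.180 to 0.224 in the other mutants.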

How the results depend on the processing

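Between 21 and 22 alternatives gave a value for each tested member, and none reversed a called direction. bbc3, casp8, diablob and pmaip1 each lost their call in 1, with sibling 2 counted as a mutant, and baxa in that and in the replicate block (numbers 3 to 6), where it was 0.52. No member that missed the threshold passed it in any. With sibling 2 as a mutant 0 members rose and 0 fell, 4 and 1 of the other pathway genes did so, and 300 and 461 of all genes; the cause was not tested. At a mean of at least 5 FPKM 2 members rose, since bbc3 and casp8 were not tested there, and 755 genes fell. Leaving out each library gave 739 (without sibling 4) to 1229 falling genes. All genes split 727 higher to 1137 lower here, 918 to 967 under median of ratios scaling and 987 to 1008 after quantile normalization. bbc3 ran from 0.68 on log2(FPKM + 5) to 1.82 on log2(FPKM + 0.1), and casp8 from 0.66 to 1.78.

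The replicate numbers do not pair the samples by label. Same-numbered libraries had correlations of -0.03, 0.09, 0.10 and 0.15 (numbers 3 to 6), and differently numbered ones -0.084 to 0.175. Not every library correlated best with its own number. So few values cannot decide whether same-numbered libraries were paired, and pairing was not tested. With the replicate number as a block 722 genes rose and 1195 fell. Without the block, on the same 8 libraries, 763 rose and 1257 fell, and baxa kept its call (limma adjusted p = 0.0338). Low genes such as casp9, apaf1 and the second baxa row are limited by depth, which is unknown. The same holds for bbc3 and casp8 in siblings, whose means of 1.33 and 1.58 FPKM were below that of apaf1 (2.61 FPKM). Their ratios of mutant to sibling mean rest on those low values.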
